A study of Arabidopsis thaliana with 16 samples.

Results

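The genes described here are the most leaf-specific transcripts of Arabidopsis thaliana plantlets that an insertion in GLU1 left within set limits. GLU1 encodes a ferredoxin-dependent glutamate synthase, and the study describes the mutant as a knock-down with residual transcript. Another gene, GLU2, encodes another such enzyme. Members were chosen by 3 log2 differences between group means: wild type leaf minus wild type root of at least 5, an absolute genotype difference in leaves under 1.5, and an absolute genotype difference in roots under 0.3. The rule kept 50 of 22266 probe sets. Of the 103 probe sets with an organ difference of at least 5, it left out 18 over the leaf limit, 30 over the root limit and 5 over both. Plastid genome probe sets, SBPASE, PRK and symbols starting UGT, CYP, ABC, MYB, EXP or XTH were to be dropped by name, which removed 0 probe sets. All of the contrasts between groups were thus used in the selection or are bounded by it, so the values of the members are a description and carry no test.

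Total RNA of whole organs was hybridised to Affymetrix ATH1 arrays. There were 4 arrays each of leaves of glu1-2, leaves of Col(0), roots of glu1-2 and roots of Col(0). The glu1-2 mutant is a single homozygous T-DNA insertion line of GLU1 (AT5G04140) in the Col(0) accession, called GLU1-KO in the labels, and Col(0) is the wild type. All plantlets were 18 days old, had grown in vitro on medium with 3% sucrose under a 16 h photoperiod, and were harvested 2 h into the light period. The 4 arrays of a group are biological replicates, and the sources used here do not say whether a replicate pooled several plantlets. Mutant plantlets were described as chlorotic and reduced in growth. In such bulk tissue, fewer cells of a type and less RNA per cell cannot be told apart.

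Ferredoxin-dependent glutamate synthase is a plastid enzyme that makes glutamate from glutamine and 2-oxoglutarate. The study also cites a mitochondrial location for the GLU1 product. In leaves the enzyme takes part in the reassimilation of the ammonium released by photorespiration. Genes with more transcript in leaves than in roots include many of the thylakoid membrane, where light drives electron transport, and some of the leaf surface. Among the former is the chloroplast NADH dehydrogenase-like (NDH) complex, which returns electrons from ferredoxin to the plastoquinone pool and so takes part in cyclic electron flow around photosystem I.

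The deposited values are normalized intensities on a linear scale, rounded to whole numbers, and were taken to log2 for every difference. The median intensity was 97 to 102 on leaf arrays and 106 to 110 on root arrays. An intensity of 32, under which 30.6% of all values lay, was taken as the level below which signal was not separated from background. The platform table names 1 gene for 22 of the 50 members (13216 of all probe sets tested) and several for 0. One more member, CORI3 (AT4G23600), was named through a partial list of genes induced in glu1-2 leaves, so that a gene named in this way could only be higher there. The other 27 members are not named, and the drops by symbol could not reach them. The platform table used here pairs no probe set with GLU1, so the knocked-down transcript was not identified among the probe sets. Of the leaf markers, 3 of 10 were named and all of these were brighter in leaves, with a summed intensity of 9457 to 11739 in glu1-2 leaves, 11600 to 13074 in wild type leaves, 1507 to 1600 in glu1-2 roots and 936 to 1150 in wild type roots. The defining marker rubisco activase (RCA) made up most of this sum, and 0 of 10 root markers were named, so root tissue was not checked against its markers. The part of the higher sum in glu1-2 roots in the results was not tested.

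**Figure D1:**
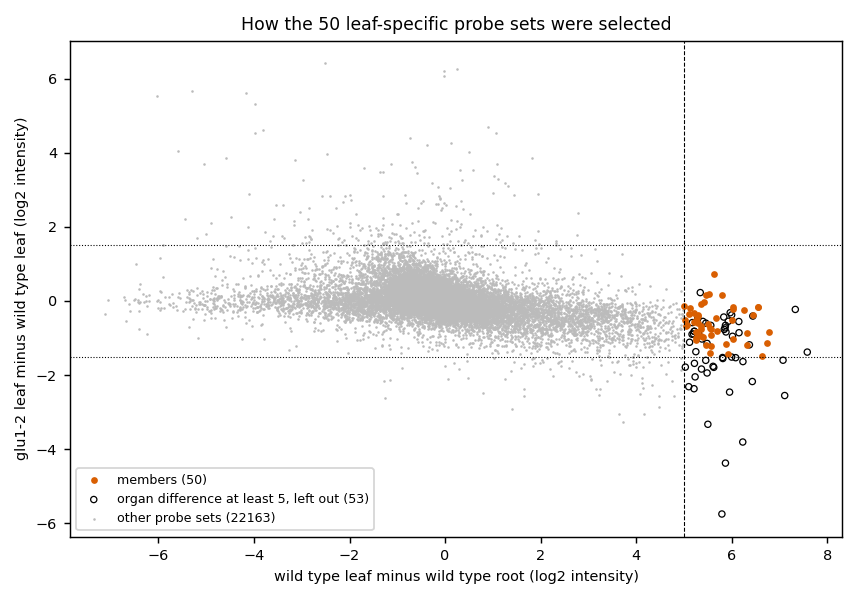
Wild type leaf minus root difference (x axis) and glu1-2 minus wild type difference in leaves (y axis) of all probe sets, both in log2 intensity, with the limits of the selection as dashed (organ) and dotted (leaf genotype) lines. The 50 members lie right of 5 and between the dotted lines, and open circles mark the 53 other probe sets with an organ difference of at least 5, of which 52 lie below 0 on the y axis.

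In the wild type, the members were brighter in leaves than in roots by a median of 5.52 on the log2 scale, with a range of 5.01 to 6.77, against a median of 0.03 over all probe sets. By selection 50 of 50 passed at a q under 0.01 (limma), where 36.9% of all probe sets were higher in leaves. The intensities of single arrays ran between 349 and 7803 in wild type leaves and between 9 and 231 in wild type roots. The root mean lay under 32 for 33 members, so that for these the difference is not a measured fold. With every value under 32 raised to 32, the leaf level was at least 13.2-fold (AT1G51805) to at least 87.0-fold (AT1G67865) the root level, with 27 of the 50 still at 5 or more on the log2 scale.

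In glu1-2, the same probe sets were brighter in leaves than in roots by a median of 4.88, with a range of 4.27 to 6.31 as measured, against a median of 0.05 over all probe sets. All 50 passed here too, where 33.8% of all probe sets were higher in glu1-2 leaves than in glu1-2 roots. The organ difference was smaller in glu1-2 than in the wild type for 45 members and stayed at 5 or more for 21. The threshold of 5 was set on the wild type difference only, which by itself favours a smaller value in glu1-2. The share of all probe sets was not set beside these counts, which are a description. The glu1-2 root mean lay under 32 for 35 members, and with every value under 32 raised to 32 the difference was 5 or more for 15 members and under 4 for 13, with a range of at least 8.75-fold (AT1G51805) to at least 61.0-fold (AT1G67865). For every member the lowest glu1-2 leaf array exceeded the highest glu1-2 root array, by a factor of at least 6.47 with values so raised. The rule all but fixed this in advance, and the share of all probe sets was not set beside it. Both limits of the rule together hold the glu1-2 organ difference close to the wild type one.

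**Figure D2:**
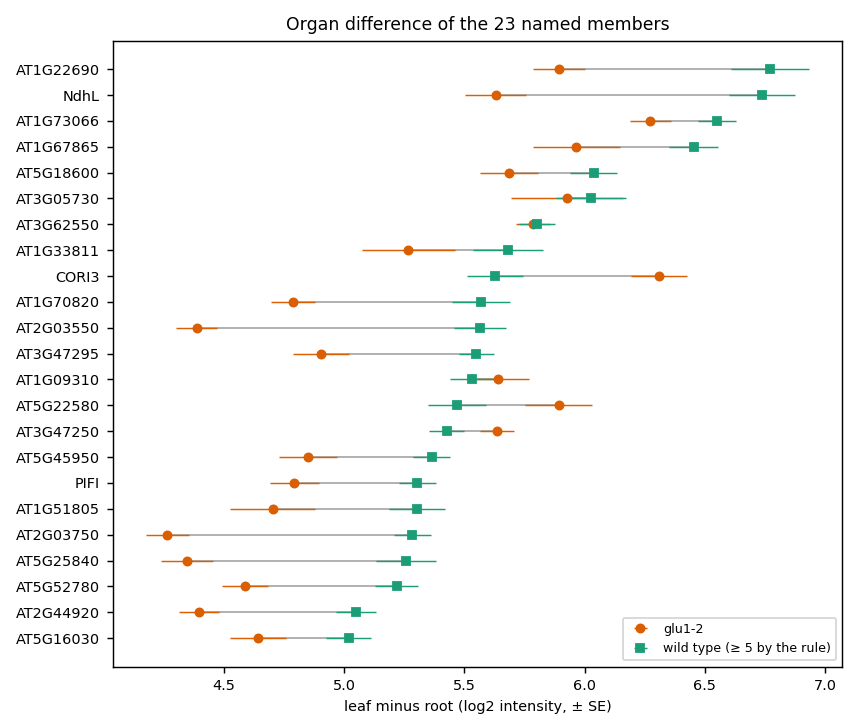
Leaf minus root difference (log2 intensity, ± SE, n = 4 arrays per group) of the 23 named members in glu1-2 (circles) and in the wild type (squares, at least 5 by the rule). The circle lies left of the square for most members, and right of it for CORI3, AT1G09310, AT5G22580 and AT3G47250.

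Most members were lower in glu1-2 leaves than in wild type leaves, by up to 2.78-fold. The median difference was -0.63, with quartiles of -0.94 and -0.27, against -0.02 over all probe sets. Below 0 lay 46 members and above 0 lay 4. At a q under 0.01 (limma), 33 members were lower, where 13.7% of all probe sets were, and 1 was higher, where 14.2% were. These shares are given beside the counts only to show the background, since the leaf difference was one of the values that chose the members. Of the 33, 10 were lower by 1 or more on the log2 scale, and the mildest difference that passed was -0.36. The arrays of the genotypes did not overlap for 37 members with all glu1-2 leaf arrays lower (16.2% of all probe sets) and for 2 with all glu1-2 leaf arrays higher (16.3%), and they overlapped for 11.

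**Figure D3:**
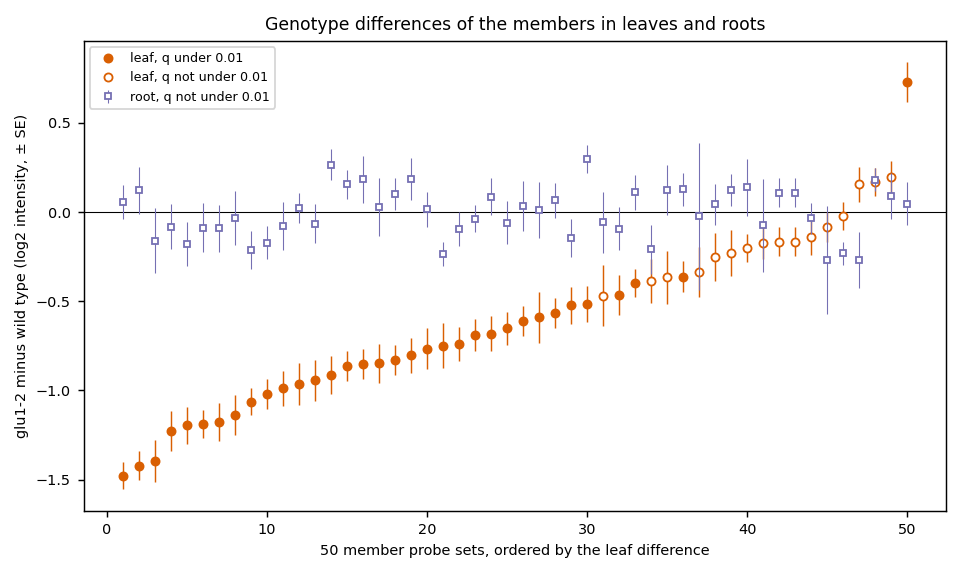
Difference glu1-2 minus wild type (log2 intensity, ± SE, n = 4 arrays per group) of each of the 50 members in leaves (circles, filled where q was under 0.01) and in roots (squares), ordered by the leaf difference. The leaf values run between -1.48 and 0.73 and 34 are filled, whereas the root values stay within 0.3 of 0 by the rule.

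Among the named members, NdhL (AT1G70760), a subunit of the NDH complex, had the lowest leaf difference. Its intensities were 794, 572, 789 and 770 in glu1-2 leaves, against 1769, 1544, 1543 and 1544 in wild type leaves. Every mutant array was thus below every wild type array, and replicate 2 was the lowest of the mutant arrays. On the log2 scale NdhL averaged 9.50 ± 0.23 in glu1-2 leaves and 10.64 ± 0.10 in wild type leaves (SD, n = 4 each), a difference of -1.14 ± 0.11 (SE), or 2.2-fold lower. Root arrays of NdhL ran between 13 and 18 in glu1-2 and between 11 and 19 in the wild type, all near background, and leaf over root was at least 22.6-fold in glu1-2 and at least 49.9-fold in the wild type.

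PIFI (AT3G15840), a chloroplast protein linked to the rise of chlorophyll fluorescence after illumination and to the NDH complex, gave 2867, 2651, 3115 and 2921 in glu1-2 leaves, against 3712, 3787, 3980 and 3745 in wild type leaves. The groups did not overlap, and the difference of -0.40 ± 0.08 was among the milder ones that passed. Its root arrays were above background, with 86 to 120 in glu1-2 and 91 to 107 in the wild type, and these overlapped. AT5G52780, a PAM68-like protein linked to the assembly of the NDH complex, gave 525, 495, 565 and 478 in glu1-2 leaves, against 790, 785, 779 and 693 in wild type leaves (-0.56 ± 0.08). All mutant leaf arrays were again the lower ones, and wild type replicate 4 was the lowest of its group. AT2G44920, a pentapeptide-repeat protein of the thylakoid lumen, gave 914, 776, 815 and 888 in glu1-2 leaves, against 1514, 1257, 1386 and 1313 in wild type leaves (-0.69 ± 0.09). The roles of these loci are general knowledge and were not in the deposited table, and the members were put together in this way after their values had been seen.

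A list of genes of the NDH complex and of chlororespiratory reduction (CRR) had 9 members with a named probe set, NdhL and PIFI included. Of these, 8 were lower in glu1-2 leaves (13.7% of all probe sets) and 0 higher (14.2%), with a median of -0.66 against -0.02 over all probe sets. The listed genes were brighter in leaves, with a median wild type organ difference of 3.57. The leaf median was -0.63 for the 50 members and -1.15 for the 53 leaf-specific probe sets left out. A fall of this size is thus not shown to be particular to the NDH list. Other subunits of the complex were not analysed here. This list was drawn up after the values had been seen. Without the members, 6 of 7 were lower. They were NdhN (-1.27 ± 0.08) and NdhS (-0.66 ± 0.09), both subunits, and CRR42 (-0.83 ± 0.10), CRR28 (-0.75 ± 0.11), CRR41 (-0.61 ± 0.10) and CRR21 (-0.53 ± 0.12), factors for the complex or for its plastid transcripts. CRR22, a factor of the latter kind, differed by -0.05 ± 0.12 and did not pass. In roots, 1 of the 9, NdhS, was higher in glu1-2 (0.35), and 0 were lower, where 2.84% of all probe sets passed in either direction. NdhN fell just short of the organ threshold, with 4.96. Of a list of electron transport genes chosen by symbol, 6 were measured, and 5 were lower and 0 higher in glu1-2 leaves, against the same shares of all probe sets, namely NdhL, NdhN, NdhS, PGRL1B (-0.65 ± 0.10), a factor of cyclic electron flow, and ATPC1 (-0.51 ± 0.10), the gamma subunit of the plastid ATP synthase. ATPC2, its second gene, differed by 0.28 ± 0.12 in leaves and did not pass. In roots, NdhS and ATPC1 (0.33) of these 6 were higher in glu1-2 and 0 were lower. The median wild type organ difference of the 6 was 3.44, so the same limit holds for them.

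Enzymes were found among the named members that were lower in leaves. AT2G03550, of the carboxylesterase family of alpha/beta hydrolases, gave 290, 316, 266 and 259 in glu1-2 leaves, against 563, 614, 494 and 462 in wild type leaves. All mutant arrays lay below the wild type ones, and the difference was -0.91 ± 0.11. AT2G03750, of the sulfotransferase family, gave 475, 416, 491 and 460 in glu1-2 leaves, against 821, 788, 846 and 892 in wild type leaves (-0.86 ± 0.08). Here too the groups were apart, and leaf over root was at least 14.4-fold in glu1-2 and at least 26.1-fold in the wild type. AT1G70820, annotated as a putative phosphoglucomutase, gave 509, 530, 515 and 562 in glu1-2 leaves, against 1033, 1050, 817 and 739 in wild type leaves (-0.77 ± 0.11). The mutant arrays of AT1G70820 lay close together, with an SD of 0.06, against 0.25 in the wild type, whose replicates 1 and 2 were the bright ones. GDSL esterases and lipases, a family with members that act on cutin and other lipids, had 2 named members. AT5G45950 gave 565, 416, 659 and 519 in glu1-2 leaves, against 980, 890, 820 and 898 in wild type leaves, a difference of -0.75 ± 0.13 without overlap. AT1G33811 gave 921, 520, 777 and 734 in glu1-2 leaves, against 1129, 1181, 955 and 788 in wild type leaves. Its arrays overlapped, the difference of -0.47 ± 0.17 did not pass, and its SD was the highest of all members in leaves of both genotypes, with 0.35 in glu1-2 and 0.27 in the wild type.

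Further members without overlap were of families with little known function or with roles in signalling. AT1G22690, of the gibberellin-regulated family of small cysteine-rich peptides, had a leaf level of at least 49.3-fold its root level in glu1-2 and at least 85.1-fold in the wild type. It gave 1671, 1377, 1728 and 1564 in glu1-2 leaves, against 2414, 3259, 3059 and 2710 in wild type leaves (-0.85 ± 0.11). Its root arrays were between 24 and 32 in glu1-2 and between 21 and 38 in the wild type. AT5G25840, of a family with a domain of unknown function, gave 328, 327, 369 and 349 in glu1-2 leaves, against 706, 615, 788 and 626 in wild type leaves (-0.99 ± 0.10). All arrays of the mutant were lower, and this was the second largest fall among the named members. AT3G47295 gave 354, 359, 441 and 340 in glu1-2 leaves, against 632, 607, 590 and 655 in wild type leaves (-0.74 ± 0.09). AT5G16030 gave 1892, 1746, 2420 and 2024 in glu1-2 leaves, against 2854, 2736, 3110 and 2832 in wild type leaves (-0.52 ± 0.10). AT1G51805, a receptor kinase with leucine-rich repeats, gave 282, 207, 324 and 325 in glu1-2 leaves, against 461, 451, 435 and 349 in wild type leaves (-0.59 ± 0.14). The highest mutant array of AT1G51805 lay only a little below the lowest wild type array, and the gene no longer passed when wild type replicate 1, wild type replicate 2 or glu1-2 replicate 1 was left out.

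**Figure D4:**
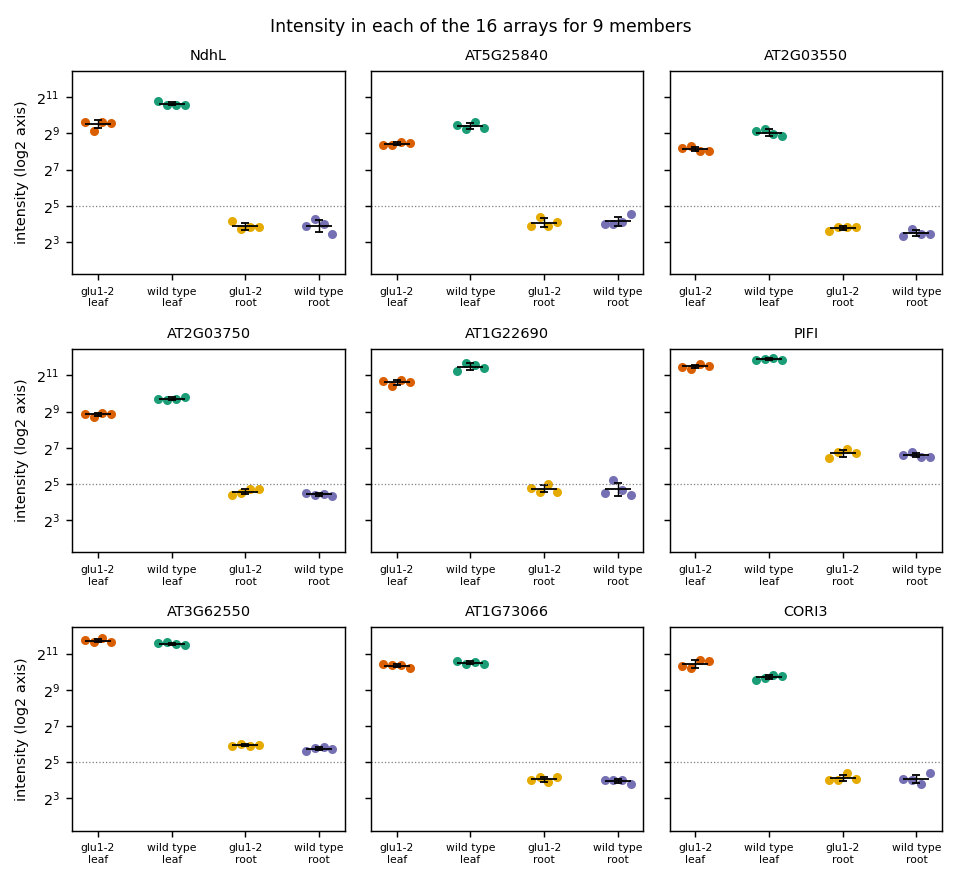
Intensity (log2 axis) of 9 members in each of the 16 arrays, with group means ± SD on the log2 scale (n = 4) as bars and the background intensity of 32 as a dotted line. In leaves, NdhL, AT5G25840, AT2G03550, AT2G03750, AT1G22690 and PIFI are lower in glu1-2, AT1G73066 differs little and CORI3 is higher in glu1-2, while the root groups lie close together in every panel.

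CORI3 was the exception in direction. The gene is induced by coronatine, a bacterial mimic of jasmonate, and is known to respond to jasmonate and wounding. Its intensities were 1266, 1173, 1575 and 1545 in glu1-2 leaves, against 755, 799, 912 and 868 in wild type leaves. Every mutant array was the higher one, by 0.73 ± 0.11 on the log2 scale or 1.66-fold, and leaf over root was at least 43.1-fold in glu1-2 and at least 26.0-fold in the wild type, with root arrays of 16 to 21 in glu1-2 and 14 to 21 in the wild type, all under the background intensity. Its rise comes with its name, since it was named through a list of genes induced in these leaves.

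Of the named members, 9 did not pass in leaves. AT3G62550, of the universal stress protein family, gave 3401, 3238, 3666 and 3219 in glu1-2 leaves, against 3035, 3142, 3009 and 2855 in wild type leaves. The groups were apart by a small step, with a difference of 0.17 ± 0.08. The same gene gave 59, 64, 59 and 63 in glu1-2 roots, against 50, 55, 57 and 54 in wild type roots, also without overlap. AT1G09310, of a family with a domain of unknown function, gave 6853, 5657, 7127 and 6929 in glu1-2 leaves, against 5966, 5896, 5697 and 5526 in wild type leaves (0.20 ± 0.09). Mutant replicate 2 alone fell within the wild type range, and the other mutant arrays were above it. AT5G22580, of the stress-responsive family with an A/B barrel domain, differed by 0.16 ± 0.10, with 1213 to 1566 in glu1-2 leaves and 1133 to 1282 in wild type leaves. AT3G47250, of another family with a domain of unknown function, gave 1135 to 1293 in glu1-2 leaves and 1169 to 1303 in wild type leaves, a difference of -0.02 ± 0.08 and the value closest to 0 among the members. In roots its arrays were 23, 25, 25 and 25 in glu1-2, against 29, 30, 29 and 27 in the wild type, all under the background intensity.

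AT5G18600, a glutaredoxin family member, gave 1427, 1084, 1351 and 1004 in glu1-2 leaves, against 1586, 1185, 1416 and 1481 in wild type leaves. These overlapped, with a difference of -0.23 ± 0.13. AT3G05730, a defensin-like peptide, gave 1373 to 1472 in glu1-2 leaves and 1390 to 1787 in wild type leaves (-0.17 ± 0.09). AT1G67865 gave 2545, 1627, 2505 and 2370 in glu1-2 leaves, against 3540, 2834, 2723 and 2485 in wild type leaves (-0.37 ± 0.15), and mutant replicate 2 stood apart from the others. Without that array the difference was -0.22. AT1G73066, of the leucine-rich repeat family, gave 1352, 1337, 1315 and 1170 in glu1-2 leaves, against 1539, 1370, 1496 and 1399 in wild type leaves. The groups did not overlap, although the difference of -0.17 ± 0.08 did not pass. A second probe set, 262368_at, held the same value as AT1G73066 in each of the 16 arrays, so that the 50 members hold 49 distinct profiles. It has no name in the platform table, and 268 probe sets of the whole table share their values with another in this way.

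The 27 members without a name had a median leaf difference of -0.80, against -0.52 for the 23 named ones, a contrast that was not tested. Of the 27, 20 were lower and 7 did not pass, against 13 lower, 1 higher (CORI3) and 9 that did not pass among the named. The 3 members with the lowest leaf differences were all unnamed and were singled out after their values had been seen. Probe set 254564_at gave 909, 844, 838 and 796 in glu1-2 leaves, against 2460, 2284, 2316 and 2362 in wild type leaves (-1.48 ± 0.08). Probe set 256015_at gave 1280, 1240, 1333 and 1134 in glu1-2 leaves, against 3450, 3083, 3385 and 3436 in wild type leaves (-1.42 ± 0.08). Probe set 258239_at gave 1977, 1753, 2544 and 2254 in glu1-2 leaves, against 4974, 5378, 6270 and 5649 in wild type leaves (-1.39 ± 0.12). In each of these every mutant leaf array lay well below every wild type leaf array, while the root arrays overlapped between genotypes. What these probe sets measure is unknown here.

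In roots the genotypes differed little, as the selection requires. The median difference was 0.01, with a range of -0.27 to 0.30, and 0 of 50 members passed (limma, q under 0.01, also 0 by Benjamini-Hochberg adjustment), where 2.84% of all probe sets did, while 5 had an unadjusted p under 0.05, against 18.2% of all probe sets. Mutant root arrays were all lower than the wild type ones for 2 members, AT3G47250 and AT5G45950 (5.47% of all probe sets), and all higher for 1, AT3G62550 (5.84%). For the members with root means under 32 the limit of 0.3 was set on values near background. Set against the root difference, the leaf difference was lower for 30 members (12.8% of all probe sets) and higher for 1, CORI3 (13.0%), by the contrast between the genotype differences of both organs (limma, q under 0.01), with a median of -0.64. Both terms of this contrast were used by the rule, so these counts add no evidence to it.

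The limits of the rule cut through a continuous range of values. Just inside the organ threshold were, of the named members, AT5G16030 (5.02), AT2G44920 (5.05) and AT5G52780 (5.22), with the unnamed 259839_at at 5.01, and just outside it, of the named probe sets, were AT5G44580 (4.99), AT1G62780 (4.98) and NdhN (4.96), of which AT5G44580 was lower in glu1-2 leaves by -1.18 and AT1G62780 by -1.04. At the leaf limit, 254564_at (-1.48) and 256015_at (-1.42) were inside, whereas 249774_at (-1.51) and AT1G75460 (-1.53) were outside. At the root limit, 252965_at (0.30) and 246004_at (-0.27) were inside, whereas LrgB (0.33) and AT2G10940 (-0.31) were outside. The leaf limit removed 23 probe sets, all of them lower in glu1-2 leaves, and 0 higher ones. The root limit removed 18 that were higher and 17 that were lower in glu1-2 roots, counting those over both limits. The 53 probe sets left out had a median leaf difference of -1.15, with a range of -5.75 to 0.23. By the values that the study reported for GLU1, its unidentified probe set would be among them.

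The spread between replicates was not used by the rule. In leaves the median SD of the members was 0.12 in glu1-2 and 0.11 in the wild type, against 0.13 over all probe sets in each group. Probe sets with a mean in that group at or above the lowest wild type leaf mean of the members had a median SD of 0.10 in glu1-2 leaves and 0.09 in wild type leaves, below those of the members. In roots the median SD of the members was 0.18 in both genotypes, above the 0.10 of all probe sets in glu1-2 and the 0.11 in the wild type. Most members had root means under 32, and probe sets of like dimness were not set beside them. The larger root spread is therefore not shown to be particular to these genes. Probe set 246880_s_at varied most in roots, with 153, 175, 165 and 57 in glu1-2, against 85, 193, 231 and 71 in the wild type. Replicate 4 was the lowest in both genotypes for this probe set. Names in _s_at mark probe sets that match several transcripts, and the members hold 2 of them.

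Leaf replicate 2 of glu1-2 stood below the other mutant leaf arrays for these genes. In it 43 of the 50 members were below their group mean and 30 were the lowest of the 4 arrays. The median deviation of the members there was -0.12, against -0.00107 for all probe sets, and its brightest intensity was 11783, against 14895 to 15689 on the other glu1-2 leaf arrays. Replicate 3 lay above the group mean by a median of 0.10. RCA and ATPC1, which are not members, were also lowest in replicate 2 of the glu1-2 leaves. RCA gave 9008 there against 10174 to 11437, and ATPC1 gave 4804 against 5126 to 6185. NdhS, also not a member, was lowest in replicate 1. Probe sets of like brightness were not set beside the counts of the members. Without replicate 2, the median leaf difference of the members was -0.62, 33 of the 34 members that had passed still did, and 1 more passed. Its part in the other results was not tested.

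**Figure D5:**
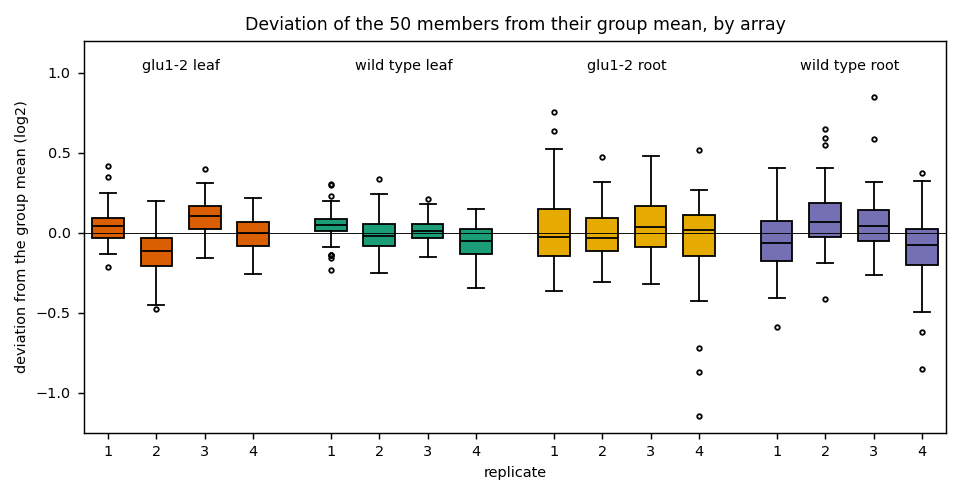
Deviation of the 50 members from their group mean (log2) in each of the 16 arrays, as boxes from the first to the last quartile with the median as a line, whiskers to 1.5 times the box and circles beyond. Leaf replicate 2 of glu1-2 has the lowest median of the leaf arrays, -0.12, and the boxes of the roots are wider than those of the leaves.

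The named members lay on all nuclear chromosomes, 8 on chromosome 1, 3 on chromosome 2, 5 on chromosome 3, 1 on chromosome 4 and 6 on chromosome 5 (reference assembly TAIR10.1). The closest pair was AT3G47250 and AT3G47295, with 1 protein-coding gene between them, and their leaf differences were -0.02 and -0.74. NdhL and AT1G70820 had 5 genes between them and both were lower in glu1-2 leaves, as were AT2G03550 and AT2G03750, with 19 between them.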

How the data were processed

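The authors preprocessed the scans of 16 ATH1 arrays by RMA (quantile normalization, robust linear model per probe set, version not given in the sources used here). The deposited values are RMA intensity values on a linear scale, rounded to whole numbers, and were used on the log2 scale without further normalization. Controls (13) were left out. Fits used limma 3.58.1 in R 4.3.3 on all 22266 probe sets, unpaired, over 8 arrays within an organ or genotype and over 16 for the contrast of both organs. Passing means a q-value by Storey's method under 0.01, as the study's methods set it. Python 3.11.15 made the annotation and figures. The fits were tested on simulated data.

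Members, lists and rules were chosen with earlier results of these data known. Named genes were, among members with 1 gene, the 10 with the largest organ difference, the 8 lowest and 8 highest leaf differences, those at the threshold, and list members. The rest of the 23, CORI3 and the probe sets named by ID were added after their values had been seen. The role lists rest on annotation words, which the tables used here do not give, so only symbols placed genes in them. Promoter and protein sequences were not analysed here. The fits did not pair arrays by replicate number, and whether the numbers mark pairs was not settled. Alternatives were another normalization, adjustment, threshold, filter, fit, a replicate block and leaving out each array.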

Additional observations from a re-analysis of the deposited data

Results flagged for a closer look

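A single array stood apart from the others of its group in 11 cases, over 96 groups of 4 values (those of the 23 named members and the array medians of all members), where chance alone flags about 1 in 20 groups. In leaves of glu1-2, replicate 2 was the low array for NdhL (572), AT1G67865 (1627) and AT1G09310 (5657). In wild type leaves it was replicate 1 for NdhL (1769, high) and replicate 4 for AT5G52780 (693, low). The other 6 were root values near background, where rounding to whole numbers leaves few steps. These were AT1G70820 in glu1-2 root replicate 4 (23), AT2G03550 in glu1-2 root replicate 1 (12), AT3G47250 in glu1-2 root replicate 1 (23), AT1G73066 in wild type root replicate 4 (14), AT3G47295 in wild type root replicate 1 (14) and AT5G25840 in wild type root replicate 4 (23). For 31 members the genotype difference in leaves differed from that in roots (limma, q under 0.01), which the limits of the selection bear on.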

How the results depend on the processing

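Against 34 members passing in leaves (33 lower, 1 higher), requiring a log2 difference of at least 1 left 10, all lower, and 0 higher, and renewed quantile normalization gave 2 higher. Leaving out 1 array gave 32 to 35, with 31 to 34 lower and 1 to 2 higher, the 2 being without glu1-2 leaf replicate 2. Besides AT1G51805, the leaf calls that ended in this way were 251155_at (for 4 arrays: wild type replicates 1 and 2, glu1-2 replicates 2 and 4) and 255795_at (for 2: glu1-2 replicate 1, wild type replicate 3). In roots 2 passed at a q under 0.05 and 0 on leaving out any array. For the contrast of both organs, a difference of at least 1 left 11, all lower, and 0 higher, and leaving out 1 array gave 30 to 32, with 29 to 31 lower and 1 to 2 higher, the 2 being without wild type root replicate 1. Both organ comparisons kept 50 throughout, which the selection all but fixed in advance. Shares of all probe sets under these alternatives were not set beside the counts, which describe the members only.

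Shifting all arrays to a common median moved the organ difference of all probe sets by 0.14, the members' wild type median to 5.66, and the share of lower calls among all leaf calls to 58.3%, against 49.2% as deposited. Raising values under 32 to 32 gave medians of 4.45 in glu1-2 and 5.04 in the wild type. Leaving out 1 array gave medians of 4.82 to 4.93 in glu1-2 and 5.48 to 5.54 in the wild type, -0.68 to -0.59 for the leaf and -0.02 to 0.05 for the root difference. The rule kept 95 probe sets at 4.5, 26 at 5.5, 64 after the median shift (48 of them among the 50), 34 with values raised to 32 (27 among the 50) and 47 to 58 on leaving out 1 array. For named members, 548 of 552 recomputed genotype differences moved by less than the spread between replicates (1 SD) and 4 root ones by more. Leaving out 1 array of 4 cannot move a difference by that much, and leaving out dim probe sets does not change it. Most of the 552 could thus not have moved by more, and the count is no measure of stability. A sign changed in 30 of them, 3 leaf values of AT3G47250 and 27 root values of 12 members, none of which had passed.

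The correlation of deviations between arrays of the same number was -0.04 to 0.13. With the replicate block, 35 members passed in leaves (34 lower), 0 in roots and 31 in the contrast of both organs. Shares of all probe sets with the block were not set beside these counts. Arrays correlated best with their own number in 2 of 4 cases in leaves, 2 of 4 in roots, 2 of 4 in glu1-2 and 1 of 4 in the wild type.

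With 4 arrays per group and 33 members near background in wild type roots, organ differences are bounds for most members.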
